A study of Homo sapiens with 10 samples.

Results

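The G1 cyclins and inhibitors of cyclin-dependent kinases were examined in RNA sequencing of cells derived from H9, a line of human embryonic stem cells (hESCs). The group holds 10 of the 64940 genes in the deposited table and was defined by gene symbol, with earlier results of these data known. Its members are the D-type cyclins CCND1, CCND2 and CCND3, the E-type cyclins CCNE1 and CCNE2, the CIP/KIP inhibitor CDKN1B, and the INK4 inhibitors CDKN2A, CDKN2B, CDKN2C and CDKN2D. The study asked what DAZL, an RNA-binding protein of germ cells, does when it is overexpressed in human primordial germ cell-like cells (hPGCLCs). The 2 oeDAZL libraries are labelled with that genotype and treatment and as hPGCLCs from hESCs. The 2 control libraries are labelled with the genotype wt, the treatment spontaneous differentiated and the cell type SD cells. Both groups come from this single line. The study's design text and the paper instead describe both groups as PGCLCs, and its methods for overexpression treat the cells with BMP4 and BMP8a and add a lentivirus. These descriptions of the control cells disagree, and under the one in the labels the effects of DAZL and of the culture cannot be told apart.

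A cell commits to DNA replication when D-type cyclins, bound to CDK4 or CDK6, and E-type cyclins, bound to CDK2, phosphorylate the retinoblastoma protein and its relatives, which releases E2F factors to switch on S-phase genes. INK4 proteins bind CDK4 and CDK6 and keep D-type cyclins off them, whereas CIP/KIP proteins such as p27, the product of CDKN1B, bind whole cyclin-kinase complexes. Pluripotent stem cells have a short G1 phase and pass through it with little restraint, and G1 lengthens as they differentiate.

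DAZL itself was listed at 0 and 0.0333 TPM (a transcript level per length, scaled to the same total in every library) in control and at 102 and 101 TPM in oeDAZL. Its log2 fold change was 6.65 (SE 0.11, adjusted p = 1.76e-05, limma). The 7 markers of primordial germ cells ranged widely, from TFAP2C at 44.3 to 53.9 TPM and KIT at 6.23 to 7.70 TPM, over SOX17 at 2.52 to 3.35 TPM and NANOS3 at 0.732 to 1.66 TPM, to DDX4, which was listed at 0 in all 4 libraries. Of the 7 amnion and trophoblast markers, GABRP and KRT7 were the highest, at 1208 to 1408 and 567 to 675 TPM, and CGA the lowest, at 4.34 to 15.5 TPM. The mesoderm and mesenchyme markers HAND1 and COL1A2 reached 958 to 1250 and 902 to 1090 TPM. Amnion also expresses TFAP2C. The cells are called by their genotype below. In such bulk libraries fewer cells of a type and less RNA per cell cannot be told apart. Nothing in the labels says that the replicates were separate cultures, and p-values then measure only the spread between these libraries, which may be technical. TPM keeps no read depth, so no counting error can be given.

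None of the 10 G1 regulators changed by the study's rule of a fold change of at least 2 with an unadjusted p of at most 0.05. CDKN2D was the 1 member higher in oeDAZL at an unadjusted p of at most 0.05, by 1.53-fold, and CCND2 was the 1 member lower, at 0.855 of the control level. CDKN2D encodes the INK4 inhibitor p19, and CCND2 encodes cyclin D2. CCND1, the most abundant member in every library, differed more between the 2 control libraries than between the group means. CCNE1, CCNE2 and CDKN1B lay within overlapping ranges. All these comparisons used limma on log2(TPM + 1), a scale that understates the change of low genes, over the 16687 genes with a mean of at least 1 TPM. The study applied its rule with DESeq2 to read counts, so whether its own fit called a member is not known here.

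The filter on low values kept 9 of the 10 members, and CDKN2C was not tested. The 1 higher member of 9 stands beside a share of 5.02% of all genes tested that were higher at the same threshold, and the 1 lower member beside a share of 15.2% lower. The study's rule called 0 of the 9 members, against 0.689% of all genes, and an adjusted p under 0.05 was reached by 0 members, against 0.0599% of all genes. Of the 9 members, 2 had both oeDAZL libraries above both controls (CCND3 and CDKN2D), against 16.0% of all genes. Another 2 had both oeDAZL libraries below both controls (CCND2 and CDKN2B), against 38.4% of all genes. The median log2 fold change of the 9 members was −0.05, and that of all genes tested was −0.08. These shares among so few genes do not set the G1 regulators apart from the rest of the table. Other scalings moved the split of higher to lower members from 1 and 1 to 2 and 0 (median-of-ratios) or to 2 and 1 (quantile normalization), with the median of all genes tested moving from −0.08 to −0.0026 and 0.0061.

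**Figure D1:**
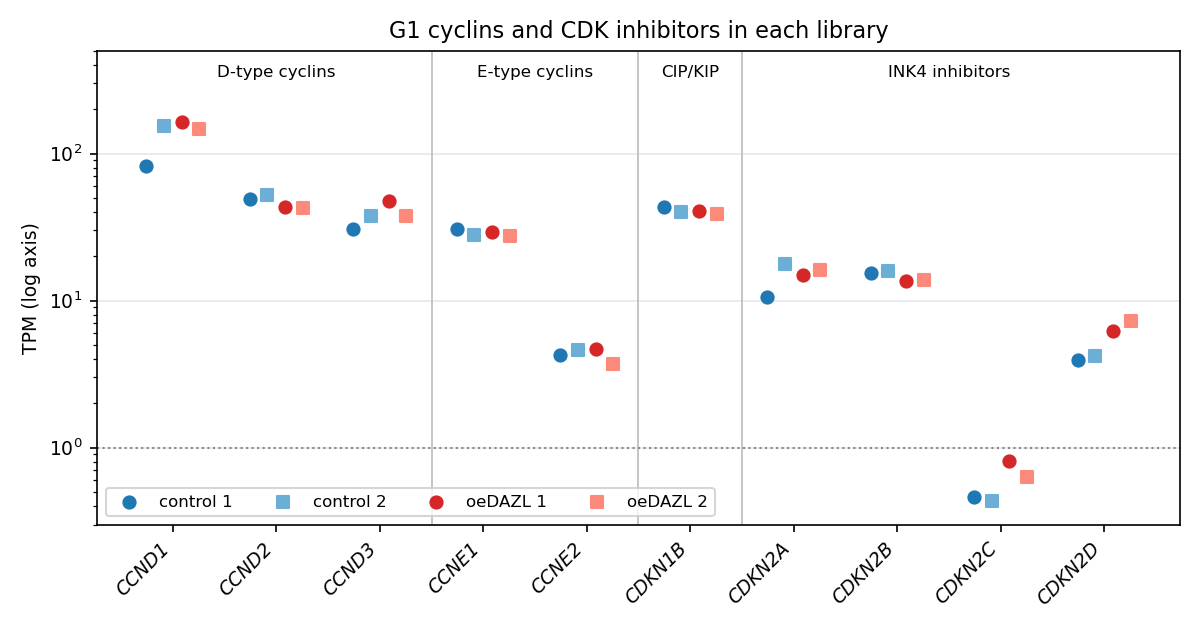
TPM of the 10 members in each of the 2 control and 2 oeDAZL libraries, on a log axis, 1 point per library. CCND1 is highest at 82.0 to 165 TPM, CDKN2C is lowest at 0.434 to 0.807 TPM, and the 2 control points of CCND1 and of CDKN2A lie far apart.

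The levels per length spanned a wide range. CCND1 was highest, at 82.0 to 165 TPM over the 4 libraries. CCND2 followed at 42.8 to 52.1 TPM, CDKN1B at 39.0 to 43.3 TPM and CCND3 at 30.6 to 47.5 TPM, and the ranges of these neighbours overlapped. CCNE1 was at 27.5 to 30.5 TPM, just under the lowest value of CCND3. CDKN2B, at 13.6 to 16.0 TPM, lay inside the range of CDKN2A, at 10.5 to 17.9 TPM, so their order is not resolved. CDKN2D, at 3.93 to 7.30 TPM, and CCNE2, at 3.70 to 4.69 TPM, overlapped too, and CDKN2C was lowest at 0.434 to 0.807 TPM. Within each family 1 or 2 genes thus supplied most of the transcript level, namely CCND1 among the D-type cyclins, CCNE1 among the E-type cyclins, and CDKN2A with CDKN2B among the INK4 inhibitors.

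The D-type cyclins are the sensors of growth signals in G1. CCND1 (hg38 chr11:69641156-69654474, plus strand), which encodes cyclin D1, was listed at 82.0 and 154 TPM in control and at 165 and 148 TPM in oeDAZL. Control replicate 1 was low, and the other 3 libraries lay close together, so the groups overlapped. The log2 fold change of 0.47 had a 95% confidence interval of −0.17 to 1.11 (SE 0.26, adjusted p = 0.366, limma). Without control replicate 1 it was 0.02, and without control replicate 2 it was 0.92 (adjusted p = 0.0352, limma), so the difference rests on which control library is used. The gap between the 2 control libraries, −0.90 on the log2(TPM + 1) scale, was larger than that of 97.9% of the genes tested. The 5 endoderm markers summed to 261 TPM in control replicate 1, against 157 TPM in control replicate 2 and 161 to 201 TPM in oeDAZL. APOA1 made up most of this sum, and none of the 5 was listed at 0 in all libraries. Control replicate 1 was also highest in the sums of the pluripotency, primordial germ cell, and amnion and trophoblast markers. It was lowest in those of the neural and dividing-cell markers. The part of these cell types in the CCND1 result was not tested. LTO1 on the opposite strand shares 497 of the 4761 exon bases of CCND1. LTO1 was at 19.6 to 23.1 TPM, and whether counting used strand is not given in the sources used here.

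CCND2 (chr12:4269771-4305353, plus strand) encodes cyclin D2 and was listed at 49.1 and 52.1 TPM in control and at 43.3 and 42.8 TPM in oeDAZL. Both oeDAZL libraries lay below both controls, and the values within each group were close. This gave a log2 fold change of −0.23 (95% confidence interval −0.39 to −0.06, SE 0.07, adjusted p = 0.166, limma), so it does not hold after adjustment over all genes tested. It was −0.14 with median-of-ratios scaling, and it missed the unadjusted threshold of 0.05 there and without oeDAZL replicate 1 (−0.24) or replicate 2 (−0.22). A coding read-through gene on the same strand shares 999 of the 7988 exon bases of CCND2 and was listed at 0 in all 4 libraries. CCND2-AS1 on the opposite strand shares 162 bases and was at 0.276 to 0.815 TPM.

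CCND3 (chr6:41934934-42050357, minus strand) encodes cyclin D3 and was listed at 30.6 and 37.4 TPM in control and at 47.5 and 37.8 TPM in oeDAZL. The oeDAZL libraries were above the controls only by a narrow margin, and oeDAZL replicate 2 and control replicate 2 were nearly equal. This gave a log2 fold change of 0.31 (95% confidence interval −0.03 to 0.65, SE 0.14, adjusted p = 0.275, limma). It did not pass the unadjusted threshold, but did so under both median-of-ratios scaling (0.40) and quantile normalization (0.38), and without control replicate 2 (0.46) and without oeDAZL replicate 2 (0.48).

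Summed over the 3 genes, the D-type cyclin level was 162 and 243 TPM in control against 256 and 228 TPM in oeDAZL. Control replicate 1 was the low library again, and CCND1 made up most of the sum. The share of CCND1 in it was 50.7% and 63.2% in control against 64.5% and 64.7% in oeDAZL. The share of CCND2 was 30.4% and 21.4% in control against 16.9% and 18.8% in oeDAZL. The CCND2 share was thus lower and the CCND1 share higher in both oeDAZL libraries, the CCND1 share only by little against control replicate 2. In TPM, CCND1 itself overlapped between the groups. Over all genes tested, 16.0% had TPM above both controls in both oeDAZL libraries, and 38.4% had TPM below both. The share of CCND3, at 18.9% and 15.4% against 18.6% and 16.6%, overlapped. An exact permutation test of 2 against 2 libraries cannot give a p under 0.333, so shares and sums are given without a test.

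The 3′UTRs of the members were searched for matches to the seeds of let-7, a miRNA family that the study followed, and of miR-16, a known regulator of G1 cyclins. The seed (bases 2 to 8) is the stretch of a miRNA that pairs first with its target. The mature miRNAs are printed from RefSeq (GRCh38.p14), with the seed in capitals, because the sites printed for the members derive from them.
let-7a-5p: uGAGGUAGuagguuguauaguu
miR-16-5p: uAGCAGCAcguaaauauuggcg
miR-221-3p: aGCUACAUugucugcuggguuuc

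Matches were searched on the transcript strand in the longest 3′UTR of each gene in GENCODE 44 (build hg38). An 8mer pairs with bases 2 to 8 and has an A opposite base 1, a 7mer-m8 lacks that A, and a 7mer-A1 pairs with bases 2 to 7 and has the A. For let-7 these are CTACCTCA, CTACCTC and TACCTCA. None of the 10 members held a let-7 8mer, which 4.05% of the 19248 3′UTRs do. CCND1 and CCND2 held 7mer-A1 matches only, CCND3 and the other 7 members held none, and 17.0% of all 3′UTRs hold a match of any of the 3 kinds. The 3′UTRs of CCND1 and CCND2 measure 3192 and 5344 bases, against a median of 1228.5 bases over all genes, and a longer 3′UTR has more positions at which a match can occur. The 5 matches are printed with their flanks because CCND2 was the member that was lower in oeDAZL and CCND1 the most abundant one. Capitals mark the 7 bases of each match, the position in the 3′UTR counts from 1 at its 5′ end, and all lie on the plus strand.
CCND1 base 2214, chr11:69653485-69653513: ctgtttcacaaTACCTCAtgcttcactta
CCND1 base 2873, chr11:69654144-69654172: cggctcacgctTACCTCAaccatcctggc
CCND2 base 1983, chr12:4301981-4302009: ggagtattcttTACCTCAggtttactgga
CCND2 base 2050, chr12:4302048-4302076: tgttttcataaTACCTCAcaaccgtacag
CCND2 base 4913, chr12:4304911-4304939: cttatatcatgTACCTCAgatctctctct

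The log2 fold change was −0.23 for CCND2 and 0.47 for CCND1, the latter with an interval that spans 0. A part of let-7 in these values was not tested.

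For miR-16, whose 8mer is TGCTGCTA, all 5 cyclins held a match of at least 7 bases and none of the 5 inhibitors did, whereas 26.3% of all 3′UTRs hold one. An 8mer was found in CCND1, CCND2 and CCNE1, and in 4.46% of all 3′UTRs. These 4 sites are printed as the longest matches found in the cyclins, with capitals over the 8 matched bases, all on the plus strand.
CCND1 base 2033, chr11:69653304-69653333: ttcacattgttTGCTGCTAttggaggatca
CCND2 base 1764, chr12:4301762-4301791: ttcacagagtgTGCTGCTAttttataaaca
CCNE1 base 247, chr19:29824013-29824042: cgtgctcccgaTGCTGCTAtggaaggtgct
CCNE1 base 485, chr19:29824251-29824280: tgttttgtaagTGCTGCTAtatctatccat

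Of these 5 cyclins, CCND2 was lower, CCND3 had values above the controls, and CCND1, CCNE1 and CCNE2 overlapped between the groups. A part of miR-16 in these values was not tested. For miR-199a-5p, miR-10a-5p, miR-22-3p, miR-125b-5p and miR-21-5p, the other miRNAs of the study that were searched, no member held an 8mer, and 1 to 3 members held a 7mer of each, where 13.6% to 23.5% of all 3′UTRs hold a match. A match is a description of the letters and not evidence of binding, and miRNA levels were not analysed here.

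**Figure D2:**
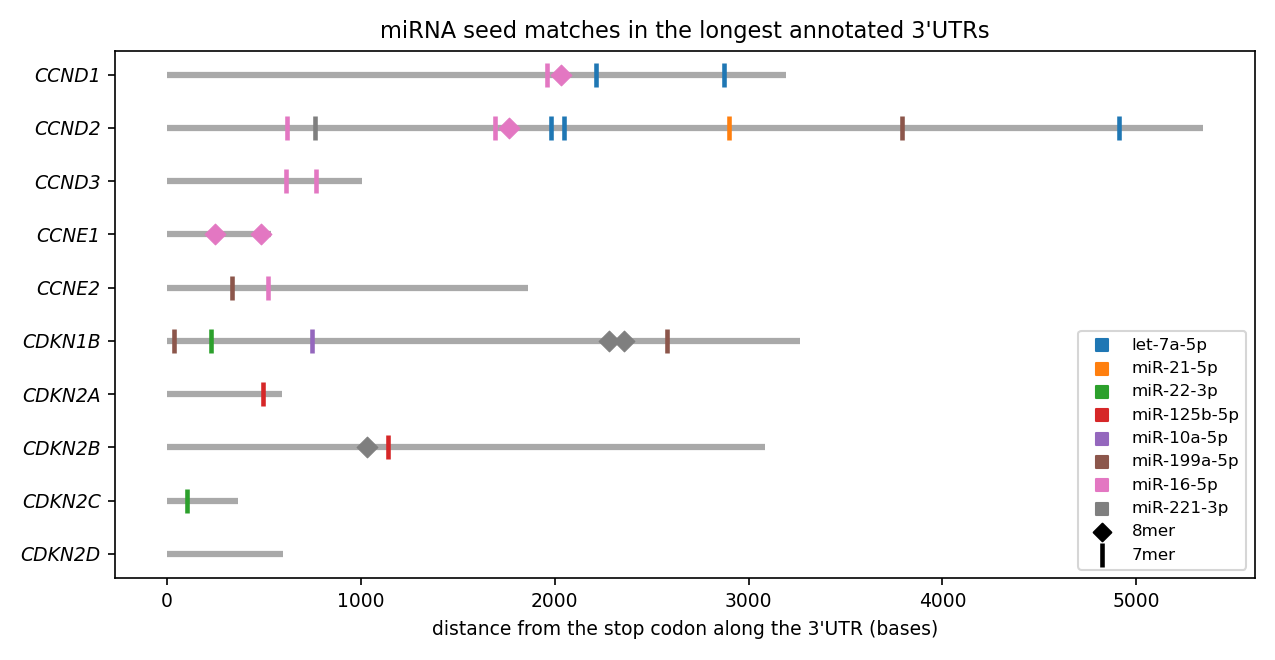
Position of seed matches along the longest 3′UTR of each member, in bases from the stop codon, for let-7, miR-16, miR-221 and the other miRNAs searched, with the line of each gene drawn to the length of its 3′UTR, diamonds for 8mers and ticks for 7mers. CCND2 has the longest 3′UTR at 5344 bases and CDKN2C the shortest at 364 bases, and CDKN2D carries no match.

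The E-type cyclins act after the D-type cyclins, as partners of CDK2 at the start of S phase. CCNE1 (chr19:29811991-29824312, plus strand) encodes cyclin E1 and was listed at 30.5 and 28.0 TPM in control and at 29.1 and 27.5 TPM in oeDAZL. The groups overlapped, and the log2 fold change was −0.05 (95% confidence interval −0.25 to 0.16, SE 0.08, adjusted p = 0.780, limma). CCNE2, which encodes cyclin E2, lies at chr8:94879770-94896678 on the minus strand and was listed at 4.28 and 4.63 TPM in control and at 4.69 and 3.70 TPM in oeDAZL. Its oeDAZL libraries held both the highest and the lowest value. The log2 fold change was −0.08 (95% confidence interval −0.49 to 0.34, SE 0.17, adjusted p = 0.832, limma). INTS8, a subunit of the Integrator complex, lies on the opposite strand and shares 1629 of the 4397 exon bases of CCNE2. INTS8 was at 30.4 to 34.9 TPM, so part of the CCNE2 level is uncertain if counting ignored strand. The summed E-type level was 34.8 and 32.7 TPM in control against 33.8 and 31.2 TPM in oeDAZL.

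CDKN1B (chr12:12685498-12722369, plus strand) encodes p27, which binds cyclin E with CDK2 and cyclin D with CDK4 or CDK6. It was listed at 43.3 and 40.0 TPM in control and at 40.8 and 39.0 TPM in oeDAZL. The groups overlapped, and the log2 fold change was −0.06 (95% confidence interval −0.25 to 0.12, SE 0.08, adjusted p = 0.691, limma). The interval is among the narrower ones of the members, and its lower bound of −0.25 is far from a 2-fold fall.

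The gap between the 2 control libraries of CDKN1B, 0.11 on the log2(TPM + 1) scale, was larger than the difference between the group means.

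miR-221 is a known repressor of p27, and the 3′UTR of CDKN1B, of 3266 bases, holds 2 miR-221 8mers. They are printed with the 8mer ATGTAGCA in capitals, beside the 8mer of CDKN2B on the minus strand, the only other member with one, and 3.58% of all 3′UTRs hold such an 8mer.
CDKN1B base 2282, chr12:12721217-12721246: aaaagcgttggATGTAGCAttatgcaatta
CDKN1B base 2355, chr12:12721290-12721319: ttttaccttttATGTAGCAcataaactttg
CDKN2B base 1034, chr9:22004935-22004964: acagctcttaaATGTAGCAatggcactgtt

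The INK4 inhibitors bind CDK4 and CDK6 only. CDKN2A (chr9:21967752-21995301, minus strand) encodes p16 and, from an alternative first exon, ARF, a regulator of MDM2, and the gene value does not tell these transcripts apart. It was listed at 10.5 and 17.9 TPM in control and at 15.0 and 16.1 TPM in oeDAZL. Both oeDAZL libraries lay between the controls. The log2 fold change was 0.17 (95% confidence interval −0.38 to 0.71, SE 0.22, adjusted p = 0.710, limma). Without control replicate 1 it turned to −0.19, and without control replicate 2 it was 0.52 (adjusted p = 0.0743, limma). As with CCND1, control replicate 1 was the low library, and the gap between the controls of −0.71 was larger than that of 95.9% of the genes tested. CDKN2B-AS1 on the opposite strand shares 593 of the 3885 exon bases of CDKN2A and was at 0.130 to 0.799 TPM.

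CDKN2B (chr9:22002903-22009305, minus strand), the neighbour of CDKN2A, encodes p15, an inhibitor that TGF-beta signalling induces. It was listed at 15.5 and 16.0 TPM in control and at 13.6 and 13.7 TPM in oeDAZL. Both oeDAZL libraries lay below both controls, with the replicates of each group close together. The log2 fold change was −0.19 (95% confidence interval −0.42 to 0.04, SE 0.09, adjusted p = 0.317, limma). It did not pass the unadjusted threshold, except when no filter on TPM was used.

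CDKN2D (chr19:10566460-10569059, minus strand) encodes p19, an INK4 protein whose level varies through the cell cycle. It was listed at 3.93 and 4.17 TPM in control and at 6.22 and 7.30 TPM in oeDAZL. Both oeDAZL libraries lay well above both controls. This gave a log2 fold change of 0.62 (95% confidence interval 0.25 to 0.99, SE 0.15, adjusted p = 0.123, limma), so the difference does not hold after adjustment over all genes tested. Over 12 alternatives the log2 fold change lay between 0.52 and 0.76 and the adjusted p between 0.0995 and 0.431, and the unadjusted threshold was missed only without oeDAZL replicate 2. Its 3′UTR of 598 bases holds no match to any of the 8 miRNAs searched.

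CDKN2C (chr1:50960745-50974634, plus strand) encodes p18, the remaining INK4 protein. It was listed at 0.464 and 0.434 TPM in control and at 0.807 and 0.633 TPM in oeDAZL. Both oeDAZL libraries were above both controls at a level under 1 TPM, where the precision is unknown. A fit without the filter gave a log2 fold change of 0.25 (95% confidence interval −0.12 to 0.62, adjusted p = 0.550, limma).

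**Figure D3:**
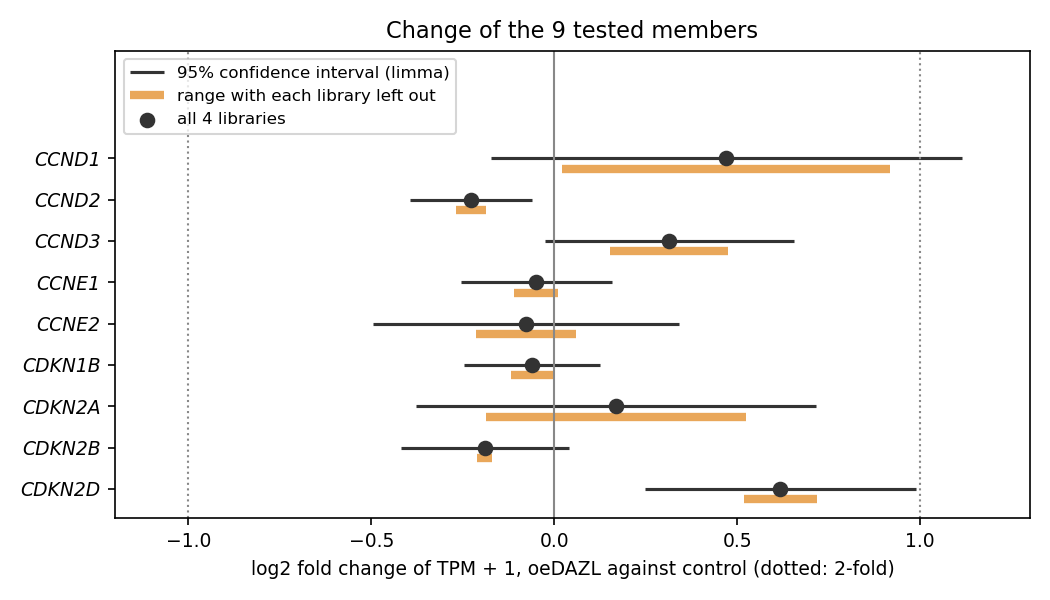
Log2 fold change of TPM + 1, oeDAZL against control, for the 9 members tested, with black lines for the 95% confidence interval from limma, orange bars for the range with each library left out in turn, and dotted lines at a 2-fold change. The interval of CDKN2D lies above 0, at 0.25 to 0.99, that of CCND2 lies below 0, at −0.39 to −0.06, and the widest is that of CCND1, at −0.17 to 1.11.

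The INK4 genes together were at 30.4 and 38.4 TPM in control and at 35.7 and 37.8 TPM in oeDAZL, so the sums overlapped. Their composition is given as the share of each gene in the sum, without a test. CDKN2D made up 12.9% and 10.8% of the INK4 level in control against 17.5% and 19.3% in oeDAZL. CDKN2B made up 51.0% and 41.6% in control against 38.2% and 36.3% in oeDAZL. The 2 groups did not overlap in either share, with that of CDKN2D higher and that of CDKN2B lower in oeDAZL. These shares are not independent of the TPM differences of the 2 genes, and they also move with the levels of the other INK4 genes. Of all genes tested, 16.0% had both oeDAZL libraries above both controls in TPM and 38.4% had both below. The share of CDKN2C, at 1.53% and 1.13% in control against 2.26% and 1.68% in oeDAZL, did not overlap either. CDKN2A took 34.6% and 46.5% in control against 42.1% and 42.7% in oeDAZL, which overlapped. The ratio of D-type cyclin to INK4 level was 5.32 and 6.32 in control against 7.17 and 6.04 in oeDAZL, and the ratio of D-type to E-type level was 4.65 and 7.45 against 7.57 and 7.32. The first ratio overlapped between the groups, and so did the second. These ratios compare transcript levels, not proteins.

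**Figure D4:**
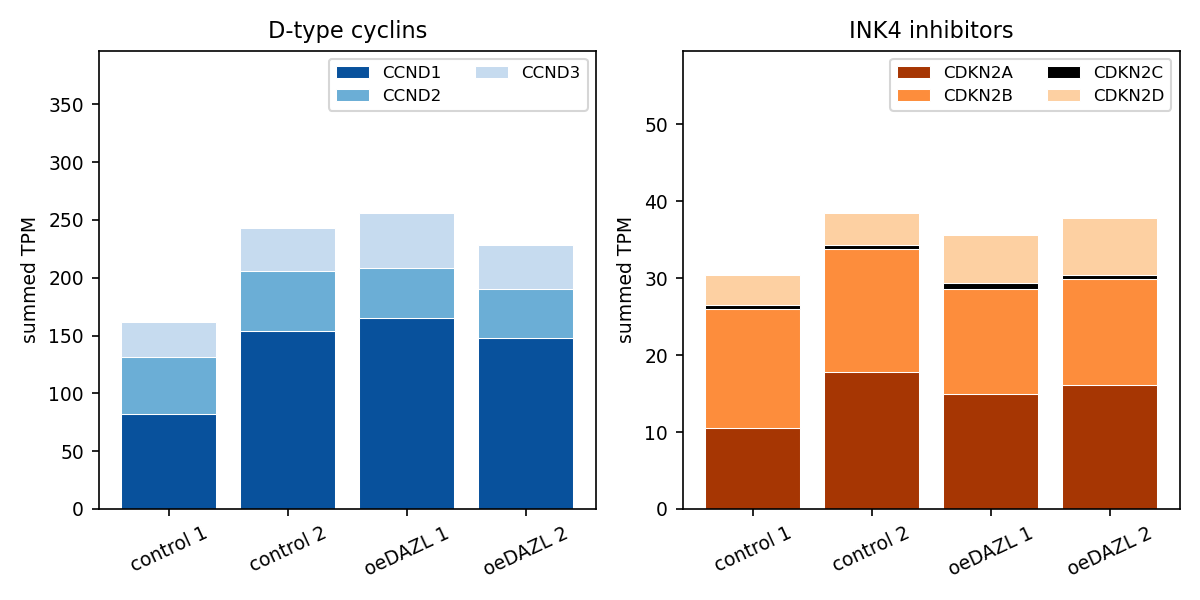
Summed TPM of the 3 D-type cyclins (left) and the 4 INK4 inhibitors (right) in each of the 4 libraries, with each bar divided by gene. The bars of control replicate 1 are the shortest, at 162 TPM for the D-type cyclins and 30.4 TPM for the INK4 inhibitors, and the CDKN2D segment is larger in both oeDAZL libraries.

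The rest of the G1/S pathway was taken from a list of 31 other genes, all of which passed the filter. Of these, 1 was higher and 5 were lower in oeDAZL at an unadjusted p of at most 0.05, beside the 5.02% and 15.2% of all genes, and 0 passed the study's rule or an adjusted p of 0.05 (limma). With median-of-ratios scaling the split was 3 higher and 3 lower, and with quantile normalization 2 higher and 3 lower, while the share of all genes tested that had a negative fold change moved from 65.3% to 50.5% and 48.7%. The median log2 fold change of the list was −0.07, against −0.08 for all genes tested.

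Among the 7 G1 kinases and their activators, CDK6 was the 1 gene lower at an unadjusted p of at most 0.05. CDK6, a partner of the D-type cyclins, was at 73.6 and 65.6 TPM in control and at 57.5 and 57.8 TPM in oeDAZL (log2 fold change −0.27, adjusted p = 0.155, limma). CDK4, the other partner, was at 158 and 164 TPM against 146 and 153 TPM (−0.10, adjusted p = 0.359, limma), and CDK2, the partner of cyclin E, was at 105 and 101 TPM against 93.8 and 94.6 TPM (−0.13, adjusted p = 0.277, limma). In 4 of the 7 genes (CDK2, CDK4, CDK6 and CDC25A) both oeDAZL libraries lay below both controls, beside 38.4% of all genes tested. CDK4 and CDK6 summed to 231 and 230 TPM in control and to 204 and 211 TPM in oeDAZL. The ratio of INK4 level to this sum was 0.131 and 0.168 in control against 0.175 and 0.179 in oeDAZL, so both oeDAZL libraries were above both controls, control replicate 2 by little.

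The other CIP/KIP inhibitors gave no call. CDKN1A, which encodes p21 and is a target of p53, was at 96.3 and 130 TPM in control and at 148 and 120 TPM in oeDAZL (log2 fold change 0.25, adjusted p = 0.419, limma). Control replicate 1 was the lowest library for CDKN1A as well. CDKN1C, which encodes p57, was at 35.2 and 31.1 TPM against 36.5 and 34.3 TPM (0.09, adjusted p = 0.588, limma).

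Among the 13 pocket proteins and E2F and DP factors, 1 was higher and 2 were lower at that threshold. TFDP1, the DP partner of E2F factors, was at 111 and 113 TPM in control and at 126 and 124 TPM in oeDAZL (0.16, adjusted p = 0.189, limma). E2F4, an E2F factor of quiescent cells, was at 84.4 and 79.5 TPM against 68.7 and 70.8 TPM (−0.23, adjusted p = 0.149, limma), and RBL2, the pocket protein p130 that binds it, was at 38.5 and 34.7 TPM against 28.8 and 32.2 TPM (−0.25, adjusted p = 0.213, limma). RB1, the retinoblastoma gene, was at 24.6 and 25.4 TPM against 23.9 and 24.0 TPM (−0.06, adjusted p = 0.706, limma), and E2F1 was at 19.6 and 18.3 TPM against 18.0 and 18.1 TPM (−0.07, adjusted p = 0.714, limma). Of the 13 genes, 2 had both oeDAZL libraries above both controls and 7 had both below, beside 16.0% and 38.4% of all genes tested.

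Among the 9 genes for ubiquitin ligases that degrade G1 cyclins or p27, 2 were lower at the same threshold. SKP2, the subunit that recognises phosphorylated p27, was at 128 and 148 TPM in control and at 94.7 and 110 TPM in oeDAZL (log2 fold change −0.43, adjusted p = 0.118, limma). RNF123, the catalytic subunit of a ligase that acts on p27 in the cytoplasm in G1, was at 24.6 and 22.8 TPM against 19.8 and 19.9 TPM (−0.24, adjusted p = 0.208, limma). Of the 9 genes, 4 had both oeDAZL libraries below both controls, beside 38.4% of all genes tested. CDKN1B overlapped between the groups, and the p27 protein is not measured by these data.

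**Figure D5:**
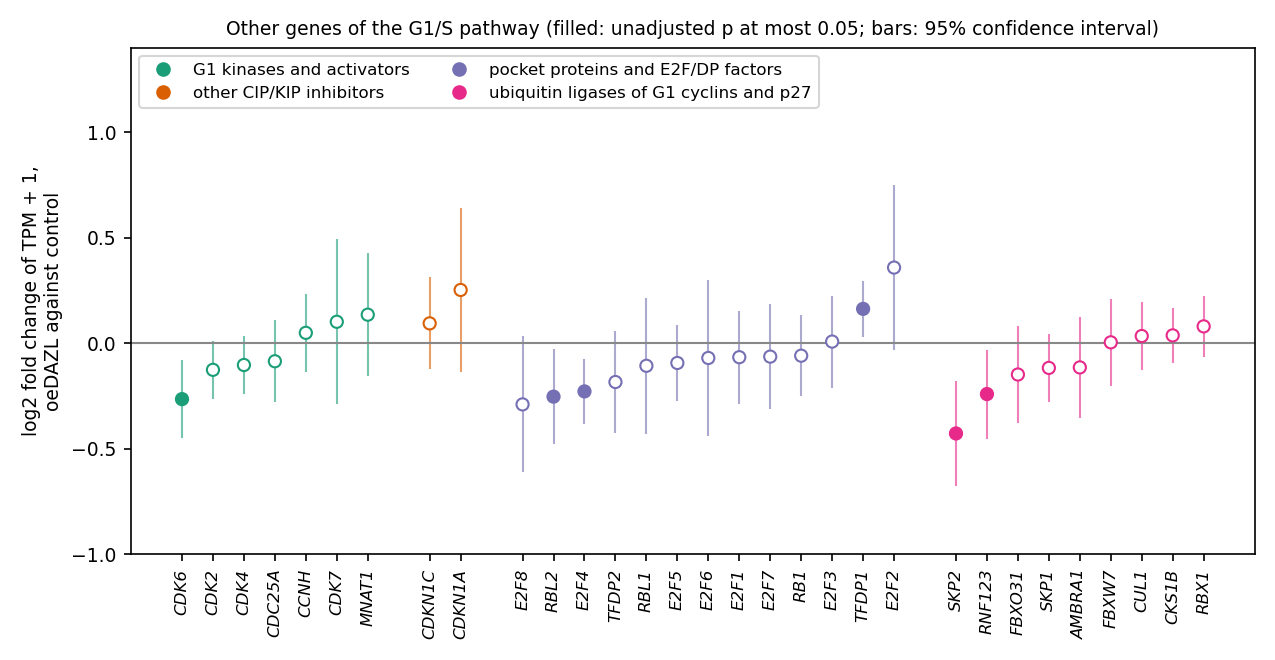
Log2 fold change of TPM + 1, oeDAZL against control, for the 31 other G1/S genes, grouped by role, with bars for the 95% confidence interval and filled points for an unadjusted p of at most 0.05 (limma). The 6 filled points are TFDP1 above 0 and CDK6, RBL2, E2F4, SKP2 and RNF123 below it.

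Genes that mark dividing cells were set beside the members. MKI67, a marker of cycling cells, was at 54.4 and 56.3 TPM in control and at 53.6 and 51.1 TPM in oeDAZL (log2 fold change −0.08, adjusted p = 0.535, limma). PCNA, the sliding clamp of DNA replication, was at 241 and 246 TPM against 257 and 263 TPM (0.09, adjusted p = 0.357, limma), and TOP2A, a topoisomerase of S phase and mitosis, was at 180 and 178 TPM against 198 and 196 TPM (0.14, adjusted p = 0.216, limma). Of these 3 markers only TOP2A passed the unadjusted threshold, beside 5.02% of all genes tested that were higher at it, and MKI67 had the opposite sign. For PCNA and TOP2A both oeDAZL libraries lay above both controls, beside 16.0% of all genes. For MKI67 both lay below, beside 38.4% of all genes.

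Markers of other cell types were set beside CDKN2D and CCND2, and their counts at an unadjusted p of at most 0.05 (limma) stand beside 5.02% of all genes tested higher and 15.2% lower. The 8 mesoderm and mesenchyme markers summed to 3294 and 3299 TPM in control and to 2868 and 2896 TPM in oeDAZL, with 1 higher and 4 lower, and none was listed at 0 in all libraries. HAND1 was the higher one, at 958 and 1042 TPM in control and 1250 and 1247 TPM in oeDAZL (log2 fold change 0.32, adjusted p = 0.0918, limma). COL1A1, COL1A2, COL3A1 and TBXT were the lower ones, so the genes of this list did not move together. The 7 amnion and trophoblast markers summed to 2629 and 2398 TPM against 2396 and 2446 TPM, which overlapped, with 3 lower and 0 higher. The 6 pluripotency markers summed to 606 and 544 TPM against 535 and 519 TPM, with 1 higher and 1 lower among the 5 tested. LIN28A made up most of this sum. The higher one was POU5F1, at 13.6 and 10.6 TPM in control and 22.4 and 20.4 TPM in oeDAZL (log2 fold change 0.79, adjusted p = 0.0896, limma). The lower one was SALL4 (−0.22, adjusted p = 0.217, limma). The 7 primordial germ cell markers summed to 70.5 and 62.7 TPM against 57.5 and 63.2 TPM, with 0 of the 6 tested past the threshold. The 5 neural markers summed to 183 and 230 TPM against 249 and 226 TPM, which overlapped, with 0 higher and 1 lower among the 2 tested. TUBB3 made up most of this sum (log2 fold change 0.22, adjusted p = 0.341, limma). PAX6, a transcription factor of neural progenitors and eye, was at 3.83 and 1.14 TPM in control and at 0.0967 and 0.558 TPM in oeDAZL. It passed the study's rule (log2 fold change −1.30, adjusted p = 0.189, limma). COL3A1 (−1.25, adjusted p = 0.0344, limma), CGA (−1.18, adjusted p = 0.0896, limma) and AFP (−1.04, adjusted p = 0.243, limma) passed it too, against 0.689% of all genes tested. The mesoderm, amnion, neural and endoderm lists thus had 1 call each, among 8, 7, 2 and 5 genes tested, and the other 2 cell type lists had 0. AFP was at 36.3 and 13.1 TPM in control and at 8.91 and 11.6 TPM in oeDAZL, so control replicate 1 was far above the other libraries. The part of these cell types in the values of CDKN2D and CCND2 was not tested.

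Promoters from RefSeq, 300 bases each, were searched on both strands for the E2F motifs TTTCCCGC and TTTGGCGC, whose matches on opposite strands can overlap at their GC-rich ends. A motif was found in 2.27% of the 35116 promoters and in 0 of the 7 members with an entry, which says only that these letters are not in those windows.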

How the data were processed

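A single table of gene-level TPM was deposited by the authors, with 1 column for each of the 2 control and 2 oeDAZL libraries. Per their methods, reads were trimmed, mapped to hg38, restricted to unique mappings and quantified. The submitters' processing notes name Trim Galore 0.6.4, cutadapt 1.18, HISAT2 2.1.0, Bowtie 1.0.0 and StringTie 2.1.4. The annotation release is not given in the sources used here. TPM holds no read counts, so depth is unknown. The miRNA libraries were not analysed here.

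Of 65003 entries, 45 copies of pseudoautosomal genes and 18 repeated identifiers were left out. log2(TPM + 1) was fitted with limma 3.58.1 in R 4.3.3 (eBayes with a trend), oeDAZL against control, without covariates, over genes with a mean of at least 1 TPM, with Benjamini-Hochberg adjustment over all of them. Unadjusted thresholds were those of the study. The procedure was tested on simulated data with independent normal noise of equal spread in every library. These data held no library that departs from its replicate over many genes, so they say nothing of such a case. Seed matches were searched in the longest annotated 3′UTR per gene.

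The members and lists were chosen with earlier results of these data known. Named genes were the 10 members, genes of the 31-gene list with an unadjusted p of at most 0.05, 7 genes of it in any case (CDK2, CDK4, CDK6, CDKN1A, CDKN1C, RB1 and E2F1), genes that overlap a member, 3 markers of division, and DAZL. The cell type markers named (TFAP2C, KIT, SOX17, NANOS3, DDX4, GABRP, KRT7, CGA, PAX6, TUBB3, POU5F1, LIN28A, SALL4, HAND1, TBXT, COL1A1, COL1A2, COL3A1, APOA1 and AFP), and CDC25A, were picked from their lists after their values were seen. Alternatives were a pseudocount of 0.1, no filter, a mean of at least 5 TPM, other scalings, a replicate block, no trend, and each library left out.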

Additional observations from a re-analysis of the deposited data

How the results depend on the processing

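All counts here are of genes at an unadjusted p of at most 0.05 in limma unless stated. The count of higher members was 1 in the reported fit and 2 with median-of-ratios scaling and with quantile normalization. The count of lower members was 1, and 2 with no filter on TPM and 0 with median-of-ratios scaling. Of the other G1/S genes, 1 was higher, and 3 with median-of-ratios scaling and 2 with quantile normalization. Of them 5 were lower, and 3 under each of these scalings. With each library left out in turn, higher members ranged from 1 to 4, lower members from 0 to 1, members with an adjusted p under 0.05 from 0 to 1, higher G1/S genes from 0 to 3, and lower ones from 1 to 6. The 4 higher members and the 1 adjusted call (CCND1) came without control replicate 2, a setting that raised the adjusted calls over all genes from 10 to 673. The count of lower members was 0 without oeDAZL replicate 1 and 0 without oeDAZL replicate 2, and that of lower G1/S genes was 1 and 3. A lone library is assumed to vary like the other group. The labels do not say that replicate numbers pair the libraries, and the replicate 1 minus 2 differences of the groups correlated at −0.10 over genes. With the replicate block, 1 member was higher and 1 lower, and 0 other G1/S genes were higher and 3 lower. A crossed block, added after seeing the data, gave 3 higher members, 1 lower, 1 with an adjusted p under 0.05, and 2 higher and 5 lower G1/S genes, with 1089 adjusted calls over all genes. The count of members passing the study's rule was 0 under every alternative run. The causes of these changes were not tested, and read depth is unknown.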
